A study of Mus musculus with 2 samples.

Results

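The regions described here are 585 KAT8 peaks of untreated mouse macrophages that were also present after stimulation with R848 and that lay where protein-coding genes adjoin. A peak was taken when its summit was within 1000 bp of an end of 2 or more protein-coding genes and when 1 bp or more of it was also covered by an R848 peak. Such peaks made up 585 of the 52001 untreated peaks. Another 2381 shared peaks lay at an end of 1 gene and 13130 lay away from gene ends. The members were thus chosen by presence in both lists and by position. Their significance and fold over background are given as a description, because weak peaks seldom pass a requirement of presence in both lists. Strand was not used in the choice, and neither were gene function or promoter sequence.

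KAT8, also called MOF, belongs to the MYST family of lysine acetyltransferases and acetylates histone H4. It works in the MSL complex, known for dosage compensation of the X chromosome in flies, and in the NSL complex, known for binding the promoters of broadly expressed genes. Mammalian genes often lie head to head, with their starts facing away from a short stretch of DNA that serves as a bidirectional promoter. Genes of DNA repair, RNA processing and mitochondria are frequent in such pairs.

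Positions were measured by CUT&Tag, in which an antibody to KAT8 directs a transposase to cut and tag nearby DNA. The cells were wild-type primary macrophages grown from bone marrow in 20 ng/ml M-CSF, either left untreated (1 library) or given 100 ng/ml R848, a TLR7 agonist, for 2 h (1 library). The labels state no strain, sex or age of the mice and not whether animals were pooled. With 1 library per group no difference between treatments has a replicate check, and no p-value is given. The untreated list held 52001 peaks and the R848 list 44772, and 31% of untreated peaks overlapped an R848 peak. No read totals were used. Read depth shows only through the background and the summit pileup solved from each peak: the lowest background was 3.37 fragments (untreated) and 2.62 (R848), and the median pileup was 12 and 10. Peak names in the R848 list carry a prefix with both 0 h and 2 h, those in the untreated list with 0 h alone. What the longer prefix means is not stated, so it is not known whether the R848 values come from the 2 h library alone. Folds of the 2 libraries are set side by side as a description of each list. No control or accessibility library was analysed, and the part that open chromatin plays in these peaks was not tested.

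The promoters below belong to the divergent pairs whose lower fold of the 2 libraries was highest, and each window lies wholly or mostly within its untreated peak. Each is the 250 bases before a RefSeq transcript start of the gene, 5′ to 3′ on the gene's own strand (GRCm38.p6, the assembly of mm10). That start is the gene end used for spacing, except for Hdgfl2, where it lies 32 bp inside the gene. Capitals mark matches to any of 10 short motifs on either strand. The windows are chr10:91082744-91082993 (Apaf1, minus strand), chr3:138143419-138143668 (Mttp, minus), chr17:56079334-56079583 (Ubxn6, minus), chr17:56079381-56079630 (Hdgfl2, plus), chr7:51862268-51862517 (Fancf, minus) and chr17:56584732-56584981 (Safb, plus). Taf5l, at chr8:124021398-124021647 on the minus strand, was added after its values were seen because its window holds both the start of its neighbour Urb2 and 2 kinds of motif.
Apaf1: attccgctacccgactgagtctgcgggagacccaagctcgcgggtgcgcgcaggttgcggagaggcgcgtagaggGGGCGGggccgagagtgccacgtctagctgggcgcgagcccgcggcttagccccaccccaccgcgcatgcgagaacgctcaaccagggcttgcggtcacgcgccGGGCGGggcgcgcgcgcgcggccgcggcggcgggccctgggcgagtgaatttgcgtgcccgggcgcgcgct
Mttp: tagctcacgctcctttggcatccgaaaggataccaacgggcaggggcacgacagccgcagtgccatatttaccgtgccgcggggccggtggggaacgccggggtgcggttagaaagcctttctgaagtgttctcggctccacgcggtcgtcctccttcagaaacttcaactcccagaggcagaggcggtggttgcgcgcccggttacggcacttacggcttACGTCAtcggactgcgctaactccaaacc
Ubxn6: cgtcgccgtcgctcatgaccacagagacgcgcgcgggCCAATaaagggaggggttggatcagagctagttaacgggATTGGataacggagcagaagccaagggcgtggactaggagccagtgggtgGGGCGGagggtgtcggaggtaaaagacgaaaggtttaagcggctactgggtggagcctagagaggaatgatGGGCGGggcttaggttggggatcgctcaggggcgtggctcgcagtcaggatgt
Hdgfl2: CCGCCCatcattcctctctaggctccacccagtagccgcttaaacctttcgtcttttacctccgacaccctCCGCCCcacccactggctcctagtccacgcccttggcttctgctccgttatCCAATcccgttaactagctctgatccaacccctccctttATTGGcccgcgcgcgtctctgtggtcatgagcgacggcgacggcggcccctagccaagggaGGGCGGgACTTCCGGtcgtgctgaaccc
Fancf: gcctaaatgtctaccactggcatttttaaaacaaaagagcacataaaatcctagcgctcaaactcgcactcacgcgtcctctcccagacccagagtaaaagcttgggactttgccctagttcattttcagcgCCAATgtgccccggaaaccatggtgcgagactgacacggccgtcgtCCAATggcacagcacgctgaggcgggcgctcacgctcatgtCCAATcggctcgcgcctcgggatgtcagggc
Safb: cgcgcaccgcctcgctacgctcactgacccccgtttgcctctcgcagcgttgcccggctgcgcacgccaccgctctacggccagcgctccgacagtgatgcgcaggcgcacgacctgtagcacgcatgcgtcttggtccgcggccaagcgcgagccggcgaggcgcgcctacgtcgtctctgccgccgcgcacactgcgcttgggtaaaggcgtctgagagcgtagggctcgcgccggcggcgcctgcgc
Taf5l: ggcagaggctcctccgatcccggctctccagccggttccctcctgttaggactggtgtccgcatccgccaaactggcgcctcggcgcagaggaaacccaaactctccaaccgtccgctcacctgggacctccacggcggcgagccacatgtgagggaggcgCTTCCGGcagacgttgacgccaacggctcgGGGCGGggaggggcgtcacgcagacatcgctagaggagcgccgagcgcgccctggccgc
The window of Apaf1 held 2 GC boxes (GGGCGG), with the untreated summit at base 155 and the R848 summit at base 128. In the Mttp window the capitals are the other-strand reading of TGACGT, the core of a cyclic AMP response element, next to the Trmt10a start at base 221, and neither summit is in the window. Ubxn6 and Hdgfl2 share most of their windows on opposite strands, with both summits in the Ubxn6 window, the R848 one at base 175. The Hdgfl2 window holds the R848 summit alone, at base 29, and it has GC boxes and CCAAT boxes. Near its transcript start, and inside the gene, it has an ACTTCCGG stretch that matches ETS-type letters. Fancf has 3 CCAAT boxes and no GC box, and both summits lie past its start. None of the 10 motifs was found in the Safb window, although both summits lay in it, at bases 119 and 151. In the Taf5l window an ETS-type match stands at bases 162 to 168 and a GC box at bases 192 to 197, and Urb2 starts at base 151. Both summits there lie past the Taf5l start.

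Gene pairs that start away from each other carried a shared peak most often. Among 3541 pairs of protein-coding genes whose closest ends were within 1000 bp, 590 (16.7%) had a shared peak with its summit within 1000 bp of both ends. For divergent pairs, which are transcribed away from each other, the count was 342 of 896 (38.2%, 95% exact binomial interval 35.0 to 41.4). For tandem pairs, in which the start of one gene follows the end of the other on the same strand, it was 79 of 506 (15.6%, 12.6 to 19.1). Convergent pairs, whose 3′ ends face each other, had one in 6 of 725 cases (0.828%, 0.304 to 1.79). These 3 layouts do not make up all 3541 pairs. The remaining pairs had a gene whose strand is not in the promoter table or had another layout. The 3 intervals do not overlap. They cover counting error only, and a gene can belong to more than 1 pair.

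**Figure D1:**
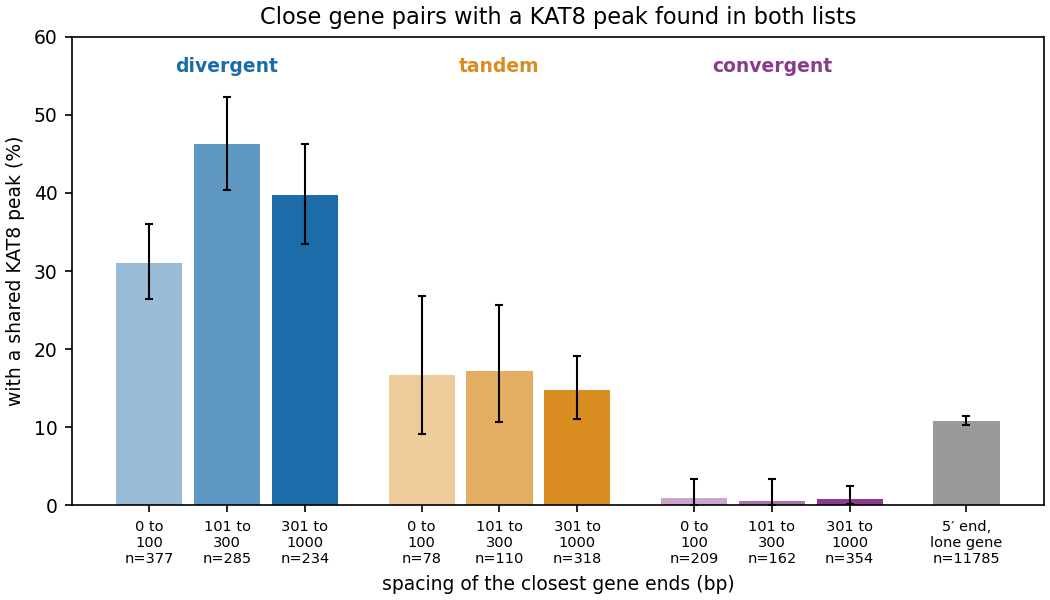
Share of close gene pairs with a shared KAT8 peak (vertical axis, %) by layout and by spacing of the closest ends in bp (horizontal axis), with 95% exact binomial intervals as bars. Pairs of unknown strand or another layout are not shown. Divergent pairs reach 46.3% at spacings of 101 to 300 bp, tandem pairs stay between 14.8% and 17.3%, and convergent pairs stay under 1%; the grey bar is the 5′ end of genes with no neighbour within 2000 bp (10.9%).

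The divergent share also varied with spacing. It was 31.0% (117 of 377, 26.4 to 36.0) for starts at most 100 bp apart, 46.3% (132 of 285, 40.4 to 52.3) at 101 to 300 bp and 39.7% (93 of 234, 33.4 to 46.3) at 301 to 1000 bp. Only the first and second of these have intervals that do not overlap. Counting a peak of either list, 495 divergent pairs (55.2%) had an untreated peak and 407 (45.4%) an R848 peak, while 341 (38.1%) had none. At the 5′ end of the 11785 genes with no other gene end within 2000 bp, 1281 (10.9%, 10.3 to 11.4) had a shared peak within 1000 bp. A divergent pair offers 2 starts at which a peak can lie and a lone gene 1, so these shares are not on the same footing per start.

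Among the members themselves, both strands were known for 444 of 585. Of these, 345 (77.7%, 73.5 to 81.5) lay at a divergent pair, 77 at a tandem pair and 6 at a convergent pair. Another 9 lay at neighbouring starts on the same strand, 6 at a start beside the end of an opposite-strand gene and 1 at 2 ends on the same strand. The name candidate bidirectional promoter therefore fits most but not all members. The other 141 had a gene whose strand is not in the promoter table. In all, 572 peaks touched 2 genes and 13 touched 3 or more, and together they held 1155 genes in 580 distinct pairs. These genes were 5.28% of 21887 protein-coding genes and 16.4% of the 7048 that have an end of another gene within 2000 bp.

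Members' genes were close together. The median spacing of the facing ends was 188 bp (quartiles 76 to 409, range 0 to 1791), where the window of the rule allows at most 2000 bp. Divergent starts lay a median of 160 bp apart (70 to 312) and tandem ends 394 bp apart (186 to 656). Of the 345 divergent members, 118 (34.2%) had starts at most 100 bp apart and 250 (72.5%) at most 300 bp apart. Of all 896 divergent pairs within 1000 bp, 377 were at most 100 bp apart and 285 at 101 to 300 bp. Short spacing is thus not particular to the members. The annotated genes overlapped each other in 103 divergent members, as at Apaf1/Ikbip, where the gene ends cross by 7 bases.

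Divergent summits lay near the midpoint of the starts, though most lay outside the stretch between them. The untreated summit was between the starts in 142 of 345 divergent members (41.2%). It was within 100 bp of the midpoint also in 142 (41.2%) and within 250 bp in 267 (77.4%), and the R848 summit did so in 144 (41.7%) and 263 (76.2%). The peak itself covered both starts in 211 divergent members (61.2%): in 77.1% of those with starts at most 100 bp apart, 68.9% up to 300 bp and 30.5% beyond. In tandem members, whose ends lay farther apart, it covered the start of one gene and the 3′ end of the other in 13 of 77 (16.9%). Where the untreated summit was at least 50 bp from the midpoint, the R848 summit was on the same side of it in 210 of 263 (79.8%). Members were chosen because the peaks of the 2 lists overlap, which favours summits that are close together. This share therefore describes the choice and is not a test of agreement between the libraries. At Mttp/Trmt10a, which encode the microsomal triglyceride transfer protein and a tRNA methyltransferase, the summits of the 2 libraries were 1 bp apart, 280 and 281 bp from the midpoint towards Trmt10a. At Brca1/Nbr1 they lay 668 and 591 bp from the midpoint, inside Nbr1.

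**Figure D2:**
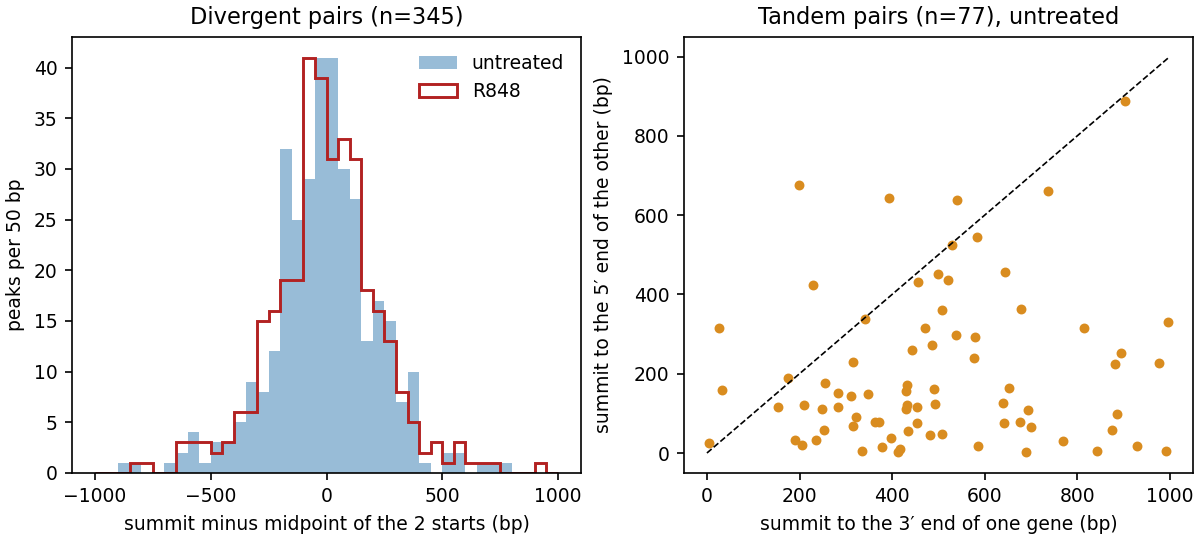
Left, distance of the summit from the midpoint of the 2 starts (bp, negative values at lower coordinates) against the number of peaks per 50 bp, for 345 divergent members in each library. Right, distance of the untreated summit from the 3′ end of one gene (horizontal, bp) and from the 5′ end of the other (vertical, bp) for 77 tandem members, of which 69 lie below the dashed line of equal distance, nearer the 5′ end.

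Tandem peaks sat at the start of the downstream gene. The summit was nearer the 5′ end in 69 of 77 (89.6%), at a median of 126 bp from it and 455 bp from the 3′ end of the upstream gene. Eif4a1, the RNA helicase of translation initiation, had a member peak at each end. The first, at its start and the end of Senp3, a SUMO protease, had a fold of 8.18 untreated and 6.15 after R848, and lay 3 bp from the Eif4a1 start. The second, at its 3′ end and the start of the macrophage glycoprotein gene Cd68, had folds of 4.04 and 3.12. The 6 convergent members were low, with folds of 2.37 to 3.20 untreated and 2.21 to 4.04 after R848.

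In height and width the members resembled other shared peaks at gene starts. The median fold of the 585 was 3.70 untreated (quartiles 3.20 to 5.0, range 1.70 to 16.1) and 3.81 after R848 (3.07 to 4.82, range 1.90 to 15.6). Divergent members had 3.89 and 3.87, and the 1882 shared peaks at the 5′ end of 1 gene 3.88 and 3.87. Shared peaks away from gene ends had 3.20 and 3.32, and the 82 at the 3′ end of 1 gene 3.13 and 3.18. A fold of at least 5 in both libraries was reached by 88 members (15.0%), by 286 of the 1882 peaks at 1 start (15.2%) and by 1148 of all 16096 shared peaks (7.13%). Divergent members and peaks at 1 start thus had nearly the same median fold in each list.

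**Figure D3:**
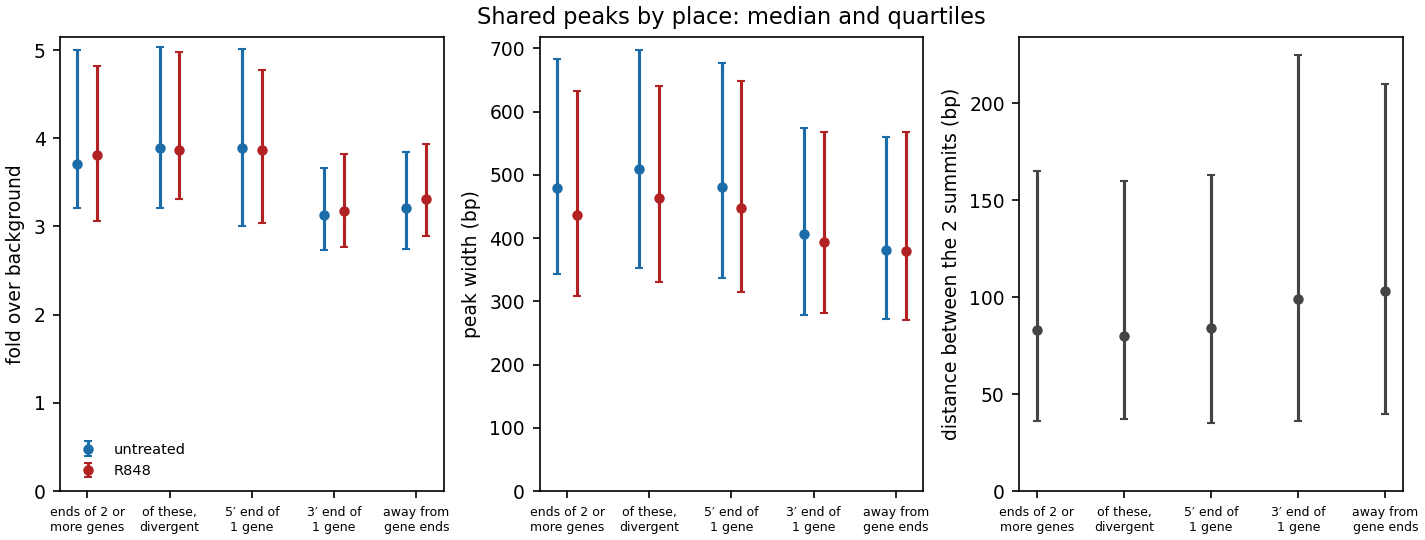
Median (point) and quartiles (bar) of fold over background, peak width in bp and distance between the summits of the 2 libraries in bp, for shared peaks by place. Members and peaks at 1 gene's 5′ end lie side by side, and peaks at 3′ ends or away from gene ends are lower and narrower.

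The members were also like peaks at 1 start in width and in the distance between the summits of the 2 libraries. The median width was 480 bp untreated and 436 bp after R848 in the members, 509 and 463 bp in the divergent ones, 481.5 and 448 bp at 1 start, and 382 and 380 bp away from gene ends. The summits of the 2 libraries lay a median of 83 bp apart in the members, 84 bp at 1 start and 103 bp away from gene ends. A q-value of 0.05 or less was reached by 449 members (76.8%) untreated and by 442 (75.6%) after R848, close to the 76.7% and 75.2% of peaks at 1 start and above the 64.9% and 66.2% of all shared peaks. In 367 members (62.7%) it was reached in both libraries, taking the R848 peak with the largest overlap. Most members, 467 of 585 (79.8%), had the lowest background of the untreated library, as had 69.4% of all untreated peaks. Many members therefore share the same few folds, which are steps of 1 fragment.

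Untreated peaks at 2 or more genes were found again after R848 more often than other peaks. Of 928 such peaks 585 (63.0%, 59.8 to 66.2) overlapped an R848 peak, against 50.8% (49.4 to 52.3) at 1 gene and 28.3% (27.9 to 28.7) away from gene ends. Against peaks at 1 gene, the difference was seen among weak peaks. With −log10 p of 3 to 5 the shares were 44.1%, 31.3% and 20.1%, between 5 and 10 they were 73.8%, 71.6% and 55.8%, and above 10 they were 96.1%, 96.9% and 94.5%. Presence in both lists is part of how the members were chosen, so these shares describe the choice and are not a test.

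The highest member in both libraries was at Apaf1, the core of the apoptosome, and Ikbip, named for a protein that binds the IκB kinase (chr10:91082139-91083234). It held 146 fragments at its summit untreated (counting interval 123 to 172) and 126 after R848 (105 to 150.02), folds of 16.1 and 15.6. The pair Mttp/Trmt10a (chr3:138143324-138144149) followed with 87 fragments (69.7 to 107) and 65 (50.2 to 82.8), folds of 11.4 and 11.7. Ubxn6, a cofactor of the p97 ATPase, and Hdgfl2, a chromatin reader, shared a peak of folds 11.2 and 9.88 (chr17:56078955-56079601) whose deposited edges were the same in both lists. Tpmt/Kdm1b had 10.5 and 7.46 and Hook3/Rnf170 9.68 and 12.6. Kdm1b encodes a histone demethylase and Tpmt the enzyme that methylates thiopurines. Also among the first 10 by untreated fold were Lcmt2/Adal (9.61 and 8.01), Fancf/Gas2 (9.54 and 10.04), Plag1/Chchd7 (9.16 and 6.91) and Ranbp1/Trmt2a (9.13 and 6.25). All 10 had folds above 6 in both libraries, against medians of 3.70 and 3.81 over the members.

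**Figure D4:**
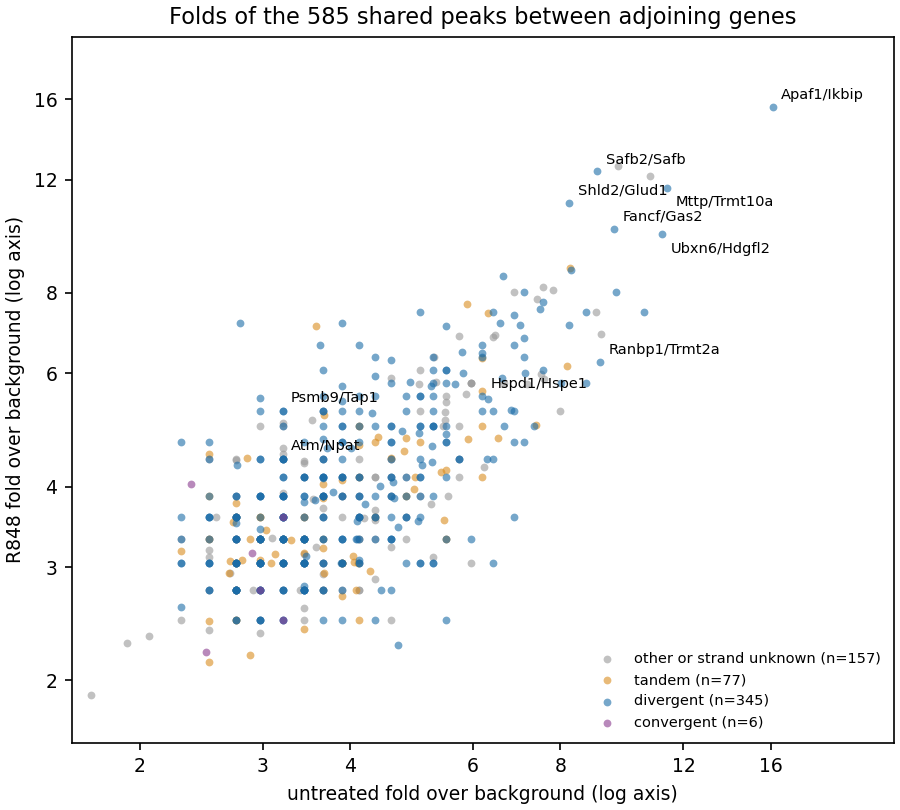
Fold over background of each of the 585 members in the untreated library (horizontal, log axis) and the R848 library (vertical, log axis), coloured by layout. Apaf1/Ikbip stands highest in both at 16.1 and 15.6, and the rows and columns of points at low folds are steps of 1 fragment at the lowest background.

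Other divergent pairs high in both lists included Safb2/Safb, paralogues that encode scaffold attachment factors, with 9.04 untreated and 12.4 after R848 (chr17:56584353-56585184). Shld2, a subunit of the shieldin complex of DNA end protection, and Glud1, glutamate dehydrogenase, had 8.24 and 11.0. At Taf5l/Urb2, which encode a SAGA subunit and a ribosome biogenesis factor, the folds were 8.28 and 8.68. Aldh6a1/Lin52 had 7.55 and 7.74 and Cep63/Anapc13, a centrosome gene and a subunit of the anaphase-promoting complex, 7.48 and 7.56. The counting intervals of the pileups of Safb2/Safb overlap, at 48 fragments (35.4 to 63.6) untreated and 63 (48.4 to 80.6) after R848.

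Many classical divergent pairs had a member. Of 32 genes of a list of such pairs, 21 (65.6%) lay at 11 members, with median folds of 5.49 untreated and 4.70 after R848. The share is to be read against 5.28% of all protein-coding genes and 16.4% of those with a close neighbour, and 38.2% of close divergent pairs had a shared peak. The list was put together from general knowledge with earlier results of these data known. Hspd1/Hspe1, the mitochondrial chaperonin and its partner, had 6.18 and 5.53. Ppat/Paics, 2 enzymes of purine synthesis, had 5.49 and 4.14. Hnrnpa2b1/Cbx3, a splicing regulator and a heterochromatin protein, had 5.49 and 4.70. Lower members were Brca1/Nbr1 with 4.35 and 3.59, Gart/Son with 3.66 and 3.32 and Mcm4/Prkdc, a replicative helicase subunit and the DNA-dependent protein kinase, with 3.43 and 3.32. The damage kinase gene Atm and its neighbour Npat had 3.20 and 4.42, with the untreated summit 1 bp from an end.

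Some classical pairs had no member. Surf1/Surf2 and the collagen genes Col4a1/Col4a2 had no peak near their ends in either list, and Fancd2 had none. Mrps12/Sars2 had an untreated peak only (3.66), as had Tbp (2.52) and Tubgcp4 (4.12). Thap7 had a peak in each list (2.75 and 2.38) but no other gene end close enough for the rule.

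RNA processing genes were the functional list with the largest share at a member among the 5 lists of broadly expressed genes and chromatin. Of 72 genes 21 (29.2%) lay at a member, and of the 51 with a close neighbour 41.2%, against 5.28% of all protein-coding genes and 16.4% of those with a close neighbour. Their 22 peaks had median folds of 3.89 and 3.87. Hnrnpc, an RNA-binding protein of the nucleus, shared a peak with Rpgrip1 (8.01 and 5.80), and Ddx5, an RNA helicase, with Cep95 (5.78 and 6.47). At Cbx5/Hnrnpa1, a heterochromatin protein and a splicing regulator, the folds were 4.75 and 4.88 but the summits lay 628 bp apart, on either side of the midpoint. The list also held 5 exosome genes, Exosc1, Exosc4, Exosc5, Exosc7 and Exosc8, and the cleavage factors Cpsf2 and Cpsf3.

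DNA repair and replication genes had 12 of 63 at a member (19.0%, and 27.9% of 43 with a close neighbour), with median folds of 3.43 and 3.73. Besides Brca1 they included Pold1, the catalytic subunit of polymerase delta, beside Nr1h2 (4.12 and 4.64), and Pcna, the sliding clamp, beside Cds2 (3.66 and 5.25). At Pcna/Cds2 the pileups were 15 fragments untreated and 18 after R848. Others were Atm, Xrcc1, Ung, Mcm4, Mcm7, Rpa3 and Rad17, none of which exceeded a fold of 4.42 in either list.

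Mitochondrial translation and respiration genes had 17 of 112 at a member (15.2%, and 21.5% of 79 with a close neighbour), with median folds of 3.66 and 3.59. The second share is closer to the background of 16.4% than the first is to 5.28%. Cox15, an enzyme of haem a synthesis, shared a peak with the copper homeostasis gene Cutc (7.095 and 8.01). Mrpl41/Pnpla7 had 6.41 and 5.25, Mrps18b/Ppp1r10 6.28 and 4.42 and Abhd8/Mrpl34 4.69 and 3.46. Of 17 genes, 9 encode subunits of the mitochondrial ribosome.

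Ribosome and translation genes had 13 of 100 (13.0%, and 26.5% of 49 with a close neighbour), with median folds of 3.79 and 3.70. Eif4a1 led them, and Eef1g, a subunit of the elongation factor complex, shared a peak with Tut1 (5.95 and 5.80). Vars, a tRNA synthetase, had 4.19 and 3.57, and Atp6v1d/Eif2s1 and Trappc4/Rps25 had 4.12 untreated with 3.04 and 4.97 after R848. A search by histone gene symbol, which did not cover H2ax, found 13 members, with untreated folds of 3.08 to 8.0. Near-identical copies of histone genes leave the counting of reads between them uncertain. The highest, at H2ac20/H2bc21/H2ac21, had 8.0 and 5.25.

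Chromatin modifiers and innate immune genes had shares near the background of all genes. For chromatin modifiers it was 4 of 77 (5.19%, and 10% of 40 with a close neighbour), and besides Cbx3 and Cbx5 these were Kmt2b, a histone methyltransferase, beside Zbtb32 (2.75 and 4.40) and Sirt2, a deacetylase. For innate immune signalling it was 4 of 78 (5.13%, and 14.3% of 28 with a close neighbour). Irak4, a kinase downstream of TLR7, shared a peak with Pus7l (4.81 and 3.04), held by 20 fragments untreated and 10 after R848. Nfkbib, an inhibitor of NF-kB, shared one with Sirt2 (2.98 and 3.59). Psmb9, an immunoproteasome subunit, and Tap1, the peptide transporter of antigen presentation, shared the third peak (3.20 and 5.25), with 13 fragments untreated and 18 after R848. Of 23 macrophage markers 2 lay at a member (8.70%, and 40% of 5 with a close neighbour). The background shares are 5.28% of all protein-coding genes and 16.4% of those with a close neighbour. The 2 markers were Cd68 and Ctsb, a lysosomal protease, the latter beside Fdft1 (2.57 and 3.59). None of 30 markers of other cell types lay at a member, but only 4 of those have a close neighbour. A peak is not a measure of expression, so these counts do not check the identity of the cells.

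ETS-type letters were more frequent in members' promoters than at single starts, and GC boxes more frequent than in divergent pairs without a peak. Promoters were the 250 bases before to 50 after each start, for the 858 members' genes whose 5′ end lay at the peak. CCGGAAG, the core of ETS-type sites, was found on either strand in 25.8% of them (22.9 to 28.8), in 14.3% (12.7 to 15.9) of 1845 promoters with a shared peak at 1 start and in 27.0% (23.7 to 30.5) of 678 promoters of close divergent pairs with no peak in either list. All 17492 promoters in the table had it in 11.9%. Members thus resembled divergent pairs without a peak in this motif. ACTTCCG, whose letters overlap CCGGAAG on the other strand, gave 18.8%, 10.7%, 20.6% and 8.58% in the same order.

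GGGCGG, the GC box bound by Sp-family factors, went the other way. It was found in 72.7% of members' promoters (69.6 to 75.7), 79.5% (77.5 to 81.3) at 1 start, 54.9% (51.0 to 58.7) in divergent pairs with no peak and 46.3% of all promoters. The median CpG count per window was 24, 26, 21 and 13 in these groups and the median GC content 63.7%, 65.3%, 60% and 56.3%. Over the 896 close divergent pairs, those with a GC box in either promoter had a shared peak in 300 of 698 cases (43.0%, 39.3 to 46.7) and those without in 42 of 198 (21.2%, 15.7 to 27.6). Pairs were also split into 3 groups by the mean CpG count of their promoters. With and without a GC box the shares were 32.5% and 17.8% at the lowest CpG counts, 44.6% and 24.1% at the middle ones and 49.8% and 25.6% at the highest. The intervals overlap slightly at the lowest counts (26.1 to 39.5 and 10.9 to 26.7). They do not at the middle and highest counts, where only 54 and 43 pairs had no GC box. For CCGGAAG the shares were 40.8% with a match and 36.8% without, and the intervals overlap (35.2 to 46.5 and 32.9 to 40.8).

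**Figure D5:**
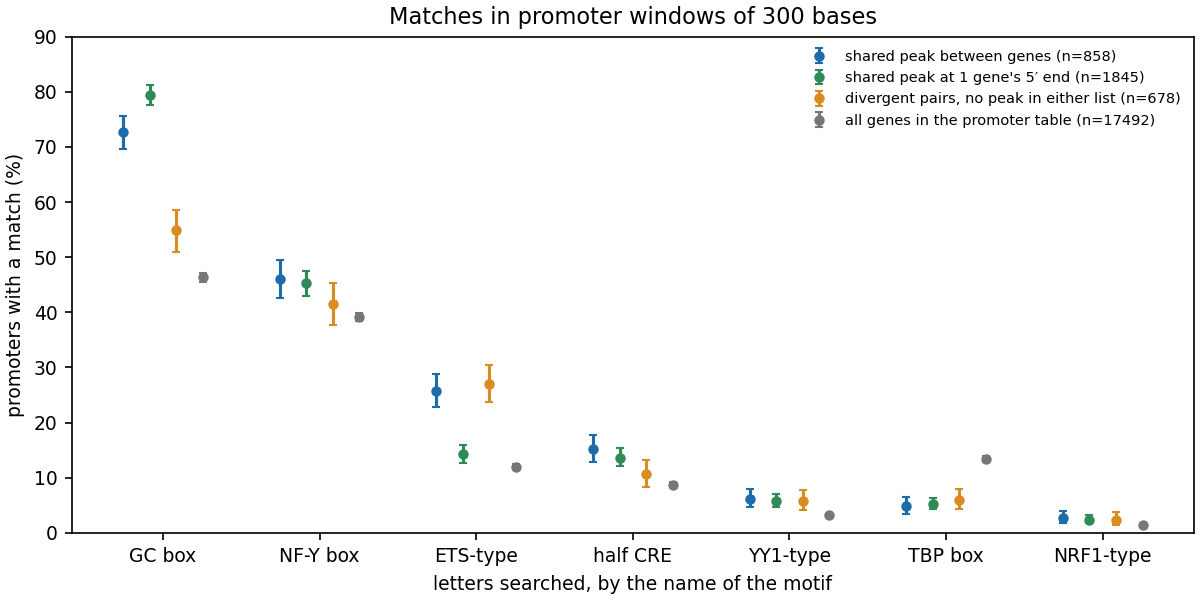
Share of promoters with a match on either strand (vertical axis, %, with 95% exact binomial intervals) for 7 of the 10 motifs searched, in 4 groups of promoters. Members (blue) lie with divergent pairs lacking a peak (orange) for ETS-type letters at 25.8% and 27.0%, and apart from them for the GC box at 72.7% and 54.9%.

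The other motifs differed less between members and peaks at 1 start. CCAAT was found in 46.0% and 45.3%, TGACGT in 15.2% and 13.7%, the full TGACGTCA that contains it in 4.08% and 3.47%, and ATGGCGGC, the YY1-type letters, in 6.18% and 5.80%. The NRF1-type palindrome was found in 2.68% and 2.38%, and the ZBTB33-type palindrome in 1.399% and 1.14%. TATAAA was in 4.78% of members' promoters and 5.20% of those at 1 start, against 13.3% of all promoters. The 2 promoters of a close pair overlap, so their matches are not independent, and a match is not a bound site.

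Few members lay on the X chromosome. Of its 73 close gene pairs 3 had a shared peak (4.11%, 0.856 to 11.5), and of its 24 divergent pairs 2 (8.33%, 1.03 to 27.0). On autosomes the shares were 16.9% (587 of 3468) and 39.0% (340 of 872, 35.7 to 42.3). The divergent intervals do not overlap, but the X share rests on 2 pairs. The 2 divergent members, named after their values were seen, were Gk/5430427O19Rik (4.12 and 3.32) and Idh3g/Ssr4 (3.43 and 3.04). The number of X chromosomes per cell is not known from the labels, and its part in this count was not tested.

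The widest members were not all high. The widest, 1913 bp at the predicted genes LOC108167694 and Gm20783, had folds of 5.41 and 4.21, and the next, 1893 bp at H3c15/H2ac19, had 6.31 and 7.46 with summits 1071 bp apart. Nudt6/Spata5 (1391 bp) had only 3.20 and 3.59. The 5 lowest untreated folds were 1.70 to 2.29. The 2 lowest, at Gm40365/Gm36327 (1.70 and 1.90) and Gm40364/Gm40363 (1.92 and 2.29), stood on untreated backgrounds of 34.9 and 35.0 fragments, against 3.37 at most members. Oplah/Gpaa1/Exosc4 had 2.06 and 2.34 on 8 fragments in each library.

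Around the 1000 bp limit, the members farthest from their second gene end were H2ax/Dpagt1 and Fbxo6/Fbxo44, both at 995 bp (folds 3.20 and 3.91, and 4.12 and 2.49), and Ctdnep1/Elp5 at 994 bp (2.52 and 4.42). The nearest left out were H4c17/H2ac23 at 1002 bp (2.82 and 2.70), H4c18/H2ac24 at 1005 bp (4.86 and 3.87) and Vamp3/Gm38529 at 1005 bp (3.20 and 4.14). Of the 585 members, 10 were pairs of peaks at the same 2 genes, as at Nfya/Oard1, and 8 shared an R848 peak with another member.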

How the data were processed

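KAT8 CUT&Tag peak lists of mouse bone marrow-derived macrophages were analysed, 1 untreated and 1 R848 library, grouped by the treatment label. Tools named without roles in the submitters' processing notes are MACS2 2.2.7.1, Bowtie 0.12.8 and DiffBind, with mm10; whether a control library entered the calling is not given in the sources used here. The authors deposited, per peak, a fold over background, which is a ratio, −log10 of the p-value and of the q-value, and a score that equals 10 times −log10 p to within 1. There is 1 list per sample, called down to a p-value near 0.01, so weak peaks can be missing from 1 list by the threshold alone.

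Pileup and background were solved from the fold and the Poisson p, to within 0.01 in −log10 p for 99.8% of peaks in each list. Counting intervals are exact 95% Poisson or binomial intervals; tagged fragments carry no molecular identifiers. Overlap needed 1 bp (checked with bedtools 2.31.1). Gene ends came from the RefSeq table of GRCm38.p6, and strand, transcript starts and promoter sequences from a RefSeq promoter table with entries for 17492 protein-coding genes and 967 of the members' 1155. The member search was tested on simulated peaks and found 100 of 100 planted. Analyses used Python 3.11.15 with pandas 2.3.3 and scipy 1.17.1.

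Members, gene lists and alternatives were chosen with earlier results of these data known. Genes named are the 10 highest untreated folds, the 10 divergent members with the highest lower fold, the 5 widest, the 5 lowest, up to 5 per gene list and per multi-gene peak by falling fold, those next to the 1000 bp limit and the classical pairs. Some genes chosen in this way are not reported here. Alternatives were other windows, overlaps, q thresholds, list lengths and promoter lengths. Peaks without a gene end nearby, and genes other than protein-coding ones, were left out.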

Additional observations from a re-analysis of the deposited data

How the results depend on the processing

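Of 101 values recomputed under an alternative, 59 stayed within counting error or 1.5 times and 42 moved. With a 500 bp window, 67.6% of untreated peaks between genes were shared, 84.3% of members with known strands were divergent, the median spacing was 150 bp, and 32.7%, 8.89% and 0.276% of close divergent, tandem and convergent pairs had a shared peak. With 2000 bp these were 57.9%, 67.5% and 270 bp, and 2.07% for convergent pairs. An overlap of 50% of both peaks gave folds of 4.12 and 4.14, 45.04% shared, and 28.0% and 10.3% of divergent and tandem pairs. Lists first cut to a q-value of 0.05 left 369 members (367 by the R848 peak of largest overlap) with folds of 4.39 and 4.42, a width of 578 bp and 25.1%, 9.29% and 0.276% of the 3 kinds of pair. A −log10 q of at least 5 left 118 members with folds of 6.18 and 5.85, a width of 732 bp, 55.4% shared, 84.1% divergent, a spacing of 223 bp and 8.04%, 1.78% and 0.138% of pairs. Chosen in the R848 list, members were 432.5 bp wide and 74.6% were shared. Transcript starts alone left 342 members and 66.8% shared. In 200 bases of promoter the shares were 20.9% for CCGGAAG, 15.3% for ACTTCCG, 64.7% for GGGCGG, 12.4% for TGACGT, 39.2% for CCAAT and 3.15% for TATAAA. The stricter thresholds and shorter windows hold fewer peaks or bases by construction. Lists of equal length moved none of 10 values, and restricting motifs to divergent pairs none of 10. Divergent pairs had the highest share and convergent pairs the lowest under each alternative run; those for close pairs were added after the data were seen. No paired analysis was possible because each group has 1 library. Depth limits the weak members, whose R848 pileup can be as low as 7 fragments.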
